A study of Mus musculus with 3 samples.

Results

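Cbx2 occupancy at LIM-homeobox genes was read from 8 windows of the mouse genome (build mm9), each placed around 1 gene: Lhx1, Lhx2, Lhx8, Lhx9, Isl1, Isl2, Lmx1a and Lmx1b. Every peak of the deposited Cbx2 peak table that overlapped a window was a member. This gave 5 of the 2217 listed peaks, in 3 of the 8 windows: 3 at Lhx1, 1 at Lhx2 and 1 at Isl1. The windows at Lhx8, Lhx9, Isl2, Lmx1a and Lmx1b held no listed peak. The table carries no gene names, so a window bears the name of the gene it was drawn around.

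The study profiled Cbx2 by chromatin immunoprecipitation and sequencing (ChIP-seq) in C3H10T1/2, a line of mesenchymal progenitors derived from C3H mouse embryos, at passage 10 to 15. It compared cells with stable expression of FLAG-HA-tagged wild-type histone H3.3 (WT) with cells expressing H3.3K36M, in which methionine replaces lysine 36, to learn where on the genome Cbx2 lies with either histone. Each group had 1 ChIP library, so no value below has a replicate, and no p-value is given. Library sizes, 29278813 reads for WT and 36243012 for K36M, were inferred from the deposited values. K36M is known from the title of its library, because the genotype label of every library, the WT input included, names wild-type H3.3. How the lines were derived is not given in the sources used here.

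LIM-homeobox genes encode transcription factors with a pair of zinc-binding LIM domains, which recruit cofactors such as Ldb1, and a homeodomain that binds DNA. They specify cell identity in the embryo, above all in the nervous system, the limbs and the heart. In cells that do not use them, such genes are classic targets of Polycomb repression: Polycomb repressive complex 2 methylates lysine 27 of histone H3, and Cbx2, a chromodomain subunit of Polycomb repressive complex 1, can bind that mark and compact chromatin. In mammals Polycomb complexes are found mostly at CpG islands. H3.3K36M, known from chondroblastoma, blocks methyltransferases that act on lysine 36, the site it alters.

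The promoters of the family differ widely in CpG content, the feature for which they are shown here. RefSeq sequences (build GRCm38.p6), each running from 250 bases before to 50 bases after an annotated start, were at hand for all 8 genes, with 2 starts for Lhx2. They are printed 5′ to 3′ on the strand of the gene, with each CpG in capitals. The first 4 belong to the genes whose windows held a Cbx2 peak, and the last 2, Lmx1b and Lhx8, are those with the most and the fewest CpGs among genes without one.
Lhx1 (chr11:84525485-84525784, minus strand): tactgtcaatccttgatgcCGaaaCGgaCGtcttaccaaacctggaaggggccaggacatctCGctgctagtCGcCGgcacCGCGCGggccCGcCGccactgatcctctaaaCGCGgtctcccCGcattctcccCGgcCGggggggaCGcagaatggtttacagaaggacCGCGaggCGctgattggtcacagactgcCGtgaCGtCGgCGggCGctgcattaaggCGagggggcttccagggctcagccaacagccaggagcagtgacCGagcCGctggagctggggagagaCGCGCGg
Lhx2, first start (chr2:38339031-38339330, plus strand): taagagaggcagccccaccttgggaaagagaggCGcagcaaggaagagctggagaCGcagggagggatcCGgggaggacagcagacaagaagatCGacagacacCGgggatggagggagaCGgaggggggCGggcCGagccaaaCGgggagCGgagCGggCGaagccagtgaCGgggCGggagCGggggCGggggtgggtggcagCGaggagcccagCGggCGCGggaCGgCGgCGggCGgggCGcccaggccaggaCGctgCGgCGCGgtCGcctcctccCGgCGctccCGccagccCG
Lhx2, other start (chr2:38351058-38351357, plus strand): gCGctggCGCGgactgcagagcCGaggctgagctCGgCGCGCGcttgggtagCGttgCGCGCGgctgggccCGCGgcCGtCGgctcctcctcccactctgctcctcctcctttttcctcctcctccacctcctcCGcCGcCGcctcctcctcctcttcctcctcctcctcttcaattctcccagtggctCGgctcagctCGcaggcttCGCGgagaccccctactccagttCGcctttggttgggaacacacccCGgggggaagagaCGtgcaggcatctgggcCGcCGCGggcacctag
Isl1 (chr13:116309639-116309938, minus strand): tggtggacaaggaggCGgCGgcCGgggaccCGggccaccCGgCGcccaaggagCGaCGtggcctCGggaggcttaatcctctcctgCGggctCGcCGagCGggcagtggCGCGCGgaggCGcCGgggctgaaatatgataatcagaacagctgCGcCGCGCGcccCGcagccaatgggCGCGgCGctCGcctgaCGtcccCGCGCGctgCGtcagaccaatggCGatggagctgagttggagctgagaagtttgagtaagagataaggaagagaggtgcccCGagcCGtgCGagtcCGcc
Lmx1b (chr2:33641049-33641348, minus strand): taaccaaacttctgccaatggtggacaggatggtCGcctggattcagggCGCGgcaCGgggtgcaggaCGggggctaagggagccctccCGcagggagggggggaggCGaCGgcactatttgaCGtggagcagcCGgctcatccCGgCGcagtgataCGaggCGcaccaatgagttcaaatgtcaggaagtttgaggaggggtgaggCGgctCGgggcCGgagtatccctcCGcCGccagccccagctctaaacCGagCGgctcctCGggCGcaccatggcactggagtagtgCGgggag
Lhx8 (chr3:154330511-154330810, minus strand): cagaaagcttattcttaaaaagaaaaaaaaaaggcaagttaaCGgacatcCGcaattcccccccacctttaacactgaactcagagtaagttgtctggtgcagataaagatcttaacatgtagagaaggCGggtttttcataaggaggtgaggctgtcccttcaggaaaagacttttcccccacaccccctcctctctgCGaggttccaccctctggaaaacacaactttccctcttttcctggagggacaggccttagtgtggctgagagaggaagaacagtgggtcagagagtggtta

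In the 300 bases counted, promoters of the genes with a Cbx2 peak in their window were the most CpG-rich of the 8 genes. Isl1 had 37 CpGs, Lhx2 had 34 and 29 at its starts, and Lhx1 had 31. The genes without a listed peak had fewer: 24 at Lmx1b, 23 at Isl2, 12 at Lmx1a, 6 at Lhx9 and 4 at Lhx8. The groups did not overlap, and Lmx1b and Isl2 came closest to the genes with a peak. Over all 32851 RefSeq promoters of this length the median was 7 CpGs, and 12.9% held at least 29. CpG observed over expected, which corrects for base composition, put the genes in nearly the same order, from 1.05 at Isl1 and 0.961 at Lhx1 through 0.885 and 0.835 at Lhx2 and 0.766 at Lmx1b to 0.241 at Lhx8. This is a description of 8 genes. It covers a single annotated start for each gene except Lhx2. CpGs at other starts or elsewhere in a gene were not counted, so a low count does not mean that a locus lacks a CpG island. Since the peaks are given on mm9 and the promoters on GRCm38.p6, the distance of a peak from a printed promoter was not measured.

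**Figure D1:**
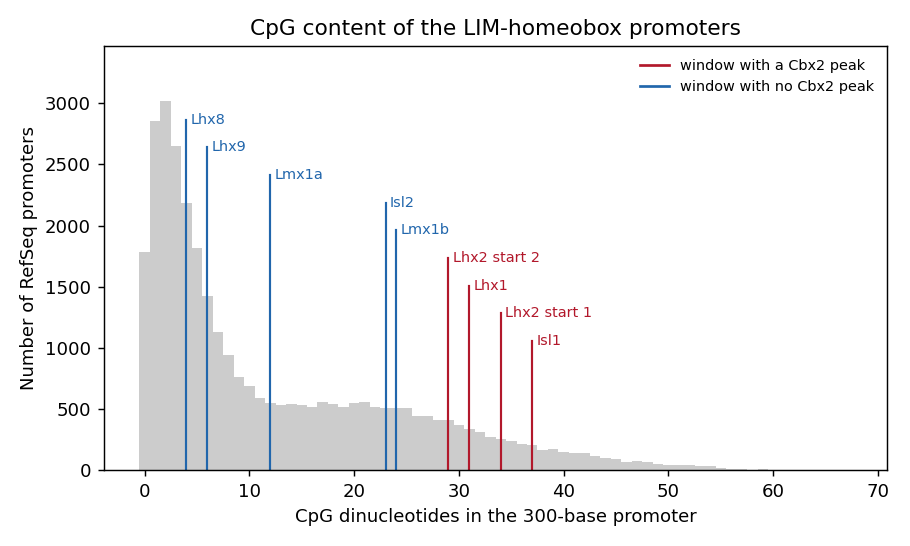
Number of CpG dinucleotides (x axis) in the 300-base RefSeq promoters; grey bars count all 32851 promoters (y axis), and lines mark the promoters of the 8 LIM-homeobox genes, whose heights carry no value. Genes with a Cbx2 peak in their window (red) lie between 29 and 37 CpGs, those without one (blue) between 4 and 24.

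Lhx1, which acts in the head organiser and in the developing kidney and was the locus with the most separate peaks, had 3 of them within 9400 bp on chromosome 11. From the lower coordinate upwards they were a 2600 bp peak (mm9, 84330200 to 84332799), a 1400 bp peak (84336000 to 84337399) and a 400 bp peak (84339200 to 84339599), with gaps of 3200 bp and 1800 bp between them. In RefSeq the gene is 7560 bp long and sits between Aatf and Mrm1. Values are reads per 1000000 library reads (RPM), with 95% exact Poisson intervals that cover counting error alone. The 2600 bp peak went from 9.97 RPM in WT (8.86 to 11.2) to 3.34 RPM in K36M (2.77 to 3.99). The 1400 bp peak went from 3.01 RPM (2.41 to 3.70) to 0.883 RPM (0.604 to 1.25). The 400 bp peak went from 1.06 RPM (0.719 to 1.503) to 0.166 RPM (0.0608 to 0.360), which rests on 31 and 6 reads. All 3 were lower in K36M, with intervals that did not overlap on the RPM scale. Regions with low WT signal are absent from the table, a limit on reading such decreases that is given below. After scaling both libraries to one median over all peaks, their log2 ratios were -0.048, -0.23 and -1.003 from the lower coordinate upwards. The summed Lhx1 ratio was then 0.903, with an interval that included 1 (0.747 to 1.09). Scaled to one sum over all peaks, it was 0.756, with an interval below 1 (0.626 to 0.911).

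Lhx2, a regulator of eye and forebrain development and of hair follicle stem cells, carried a single broad peak of 8800 bp on chromosome 2 (38195200 to 38203999). Only 3.61% of all listed peaks were longer. It held 19.8 RPM in WT (18.2 to 21.5, from 580 reads) and 3.92 RPM in K36M (3.3 to 4.62, from 142 reads). In WT it had the most Cbx2 signal of the 5 peaks, while in K36M its interval overlapped those of Isl1 and of the 2600 bp Lhx1 peak. The RefSeq gene lies between Dennd1a and Nek6 and is overlapped by the predicted genes Gm27197 and Gm13584, which ChIP reads cannot be told apart from Lhx2.

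Isl1, which is required for motor neurons, for cardiac progenitors and for the endocrine pancreas, had 1 peak of 2000 bp on chromosome 13 (117097000 to 117098999). It held 4.51 RPM in WT (3.77 to 5.35, from 132 reads) and 3.45 RPM in K36M (2.87 to 4.11, from 125 reads). Here, unlike at Lhx1 and Lhx2, the intervals of the libraries overlapped. The ratio of K36M to WT was 0.765 on the RPM scale, with an exact interval of 0.594 to 0.985, just below 1. Its direction depended on how the libraries were scaled, as given below. In RefSeq the gene lies between Itga1 and Parp8.

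**Figure D2:**
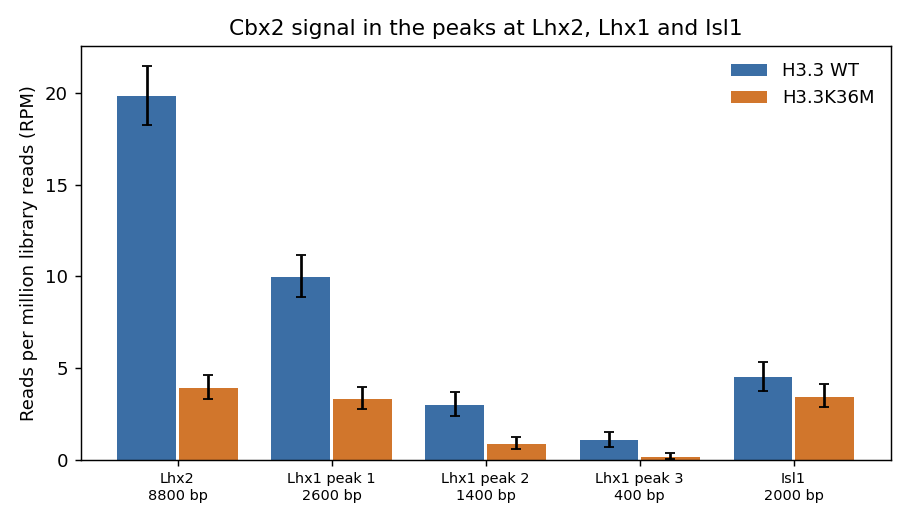
Cbx2 ChIP signal in RPM (y axis) for the 5 peaks, named by locus and length (x axis), in the WT (blue) and K36M (orange) libraries; bars are single libraries and error bars are 95% exact Poisson intervals, which cover counting error only. WT bars range from 1.06 to 19.8 RPM, and K36M bars from 0.166 to 3.92 RPM.

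In summed RPM, with no background subtracted, the loci stood far apart in WT and close together in K36M. With the reads of each locus summed, WT held 19.8 RPM at Lhx2, 14.04 RPM at Lhx1 and 4.51 RPM at Isl1, a 4.39-fold range. The order was resolved by counting: Lhx2 was 1.41 times Lhx1 (95% exact interval 1.24 to 1.61), and Lhx1 was 3.11 times Isl1 (2.55 to 3.82). In K36M the same sums were 4.39 RPM at Lhx1, 3.92 RPM at Lhx2 and 3.45 RPM at Isl1, a 1.27-fold range. Neighbours in that order did not differ beyond counting error, at 1.12 (0.887 to 1.41) for Lhx1 over Lhx2 and 1.14 (0.887 to 1.46) for Lhx2 over Isl1. Background reads in such sums grow with peak length. At Lhx2, 123.8 reads would fall on 8800 bp at the mean K36M density outside peaks, against 142 found. The closeness in K36M is therefore not shown for signal above background. The order in WT was also that of the length of sequence covered, which was 8800 bp at Lhx2, 4400 bp at Lhx1 and 2000 bp at Isl1.

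Per length, Lhx2 and Isl1 were apart in K36M, while in WT both lay close to the median of all listed peaks. Density is given here as reads per 200 bp, without correction for the deeper K36M library. In WT it was 13.2 at both Lhx2 (12.1 to 14.3) and Isl1 (11.04 to 15.7), close to the median of 13.8 over all peaks. No listed peak had less than 9.5 in WT. Whether the likeness of Lhx2 and Isl1 in WT goes beyond what the listing imposes was not tested. In K36M it was 3.23 at Lhx2 (2.72 to 3.80) and 12.5 at Isl1 (10.4 to 14.9), against a median of 6.0. The K36M density at Isl1 was higher than that of 87.7% of all peaks, whereas 5.59% of peaks were less dense in K36M than Lhx2. At Lhx1 the 2600 bp peak was the densest of the 5 in WT, at 22.5 reads per 200 bp (19.96 to 25.2), a value that 6.81% of peaks exceeded, and it kept 9.31 (7.72 to 11.1) in K36M. The 1400 bp and 400 bp peaks had 12.6 and 15.5 in WT and 4.57 and 3.0 in K36M.

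For scale, reads outside all listed peaks, spread evenly from the first base of each chromosome to its last listed peak, came to 2.25 reads per 200 bp in WT and 2.81 in K36M. The K36M interval at Lhx2 included that mean. Its 142 reads had a 95% exact Poisson interval of 119.6 to 167.4, and 123.8 reads would fall on 8800 bp at the mean density. The 400 bp Lhx1 peak, with 3.0 (1.10 to 6.53), also included it, while the Isl1 peak and the other Lhx1 peaks lay above. The local background at these loci was not measured, since reads of the input were not analysed here.

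**Figure D3:**
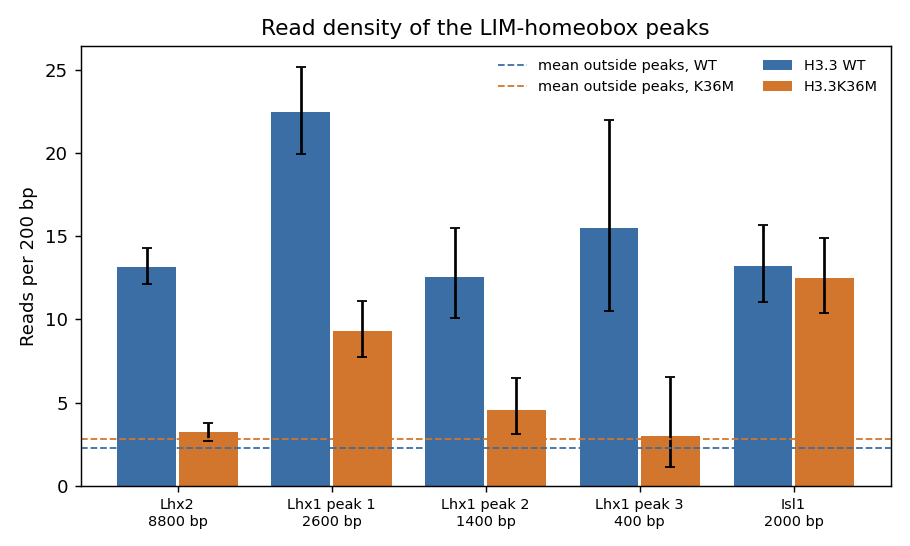
Reads per 200 bp (y axis, not corrected for library depth) in the 5 peaks (x axis) in WT (blue) and K36M (orange), with 95% exact Poisson intervals; dashed lines are the mean over sequence outside all listed peaks, 2.25 in WT and 2.81 in K36M. Lhx2 and Isl1 both have 13.2 in WT, where no listed peak has less than 9.5, but 3.23 and 12.5 in K36M.

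On the RPM scale all 5 peaks were lower in K36M, yet by very different factors. The direction at Isl1 turned to higher when the libraries were scaled to the same median or the same sum over all peaks. No listed peak had less than 9.5 reads per 200 bp in WT. In K36M, Lhx2 had 3.23 and the 400 bp Lhx1 peak 3.0. Regions with low WT signal are thus absent from the table, which by itself would favour lower K36M values. How far the decreases go beyond this was not tested. The ratio of K36M to WT was 0.198 at Lhx2 (95% exact interval 0.163 to 0.238), a 5.06-fold lower signal. Subtracting the mean density outside peaks from both libraries, an alternative chosen after seeing the data, gave 0.031 at Lhx2, and 0.217 at Lhx1 and 0.715 at Isl1, and it assumes an even background. Without subtraction the ratio was 0.313 for the summed Lhx1 peaks (0.259 to 0.376), a 3.20-fold lower signal, and 0.765 at Isl1 (0.594 to 0.985), a 1.31-fold lower signal. Scaled to the same median, which multiplies K36M by 2.89, the ratios became 0.571 (0.472 to 0.687), 0.903 (0.747 to 1.09) and 2.21 (1.72 to 2.84). Scaled to the same sum, a factor of 2.42, they became 0.479 (0.396 to 0.576), 0.756 (0.626 to 0.911) and 1.85 (1.44 to 2.38). Lhx2 thus stayed lower in K36M and the order of the loci cannot change with scaling, while the sign of the change at Isl1 rests on it. These scalings moved the median log2 ratio of all peaks by 1.43 and 1.18.

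Differences between the loci do not depend on how the libraries are scaled, because the scale cancels. Of 9 such pairs compared, 3 were between loci, 3 within Lhx1 and 3 between a locus and its nearest listed neighbour. The ratio at Isl1 was 3.87 times that at Lhx2 (95% exact conditional interval 2.81 to 5.31) and 2.45 times that at Lhx1 (1.78 to 3.36). The ratio at Lhx1 was 1.58 times that at Lhx2 (1.21 to 2.07). All 3 intervals lay above 1, so these loci differed in their change by more than counting error, in a single library per group. Unlike scaling, subtracting a background does not cancel. With the mean density outside peaks subtracted, the ratios of 0.031 at Lhx2, 0.217 at Lhx1 and 0.715 at Isl1 lay further apart. The intervals given here do not cover that. Within Lhx1 no pair was resolved. The ratios of its peaks were 0.335 (0.269 to 0.415), 0.294 (0.190 to 0.445) and 0.156 (0.0533 to 0.380) from the lower coordinate upwards. The 400 bp peak had 0.467 times the ratio of the 2600 bp peak (0.156 to 1.18) and 0.532 times that of the 1400 bp peak (0.167 to 1.47), and the 1400 bp peak had 0.878 times that of the 2600 bp peak (0.537 to 1.41). With 6 K36M reads in the smallest peak, a difference of that size was not detectable at this depth.

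Ranked by log2 ratio against the whole table, the members lay from its lower to its upper part. The log2 ratio of RPM plus 0.1 was -2.31 at Lhx2, -1.55, -1.66 and -2.13 at Lhx1 and -0.38 at Isl1, with a median of -1.66, against -1.45 over all 2217 peaks. At least 2-fold lower in K36M were 4 of the 5, beside 75.3% of all peaks, and 0 were at least 2-fold higher, beside 0.271%. At least 4-fold lower were 2 of the 5, the Lhx2 peak and the 400 bp Lhx1 peak, beside 15.9%. Ratios with an interval wholly below 1 were seen at all 5, beside 86.8% of all peaks. A listing by WT signal would favour lower K36M values in the members and in the whole table alike. With 5 members, 3 of them at 1 gene, nothing particular to the family can be read from these counts. Singly, 5.19% of all peaks had a lower log2 ratio than Lhx2, and 9.16% a higher one than Isl1, so these loci lay towards opposite ends. Scaled to the same median, the log2 ratios were -0.80 at Lhx2, -0.048, -0.23 and -1.003 at Lhx1, and 1.13 at Isl1. There 1 peak (the smallest at Lhx1, with 6 K36M reads and a value at the limit) passed 2-fold downwards and 1 (Isl1) upwards. Scaled to the same sum, they were -1.05 at Lhx2, -0.30, -0.47 and -1.21 at Lhx1, and 0.87 at Isl1. Lhx2 and the smallest Lhx1 peak then passed 2-fold downwards, and Isl1 did not pass upwards. Which peaks passed 2-fold thus depended on the scaling.

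**Figure D4:**
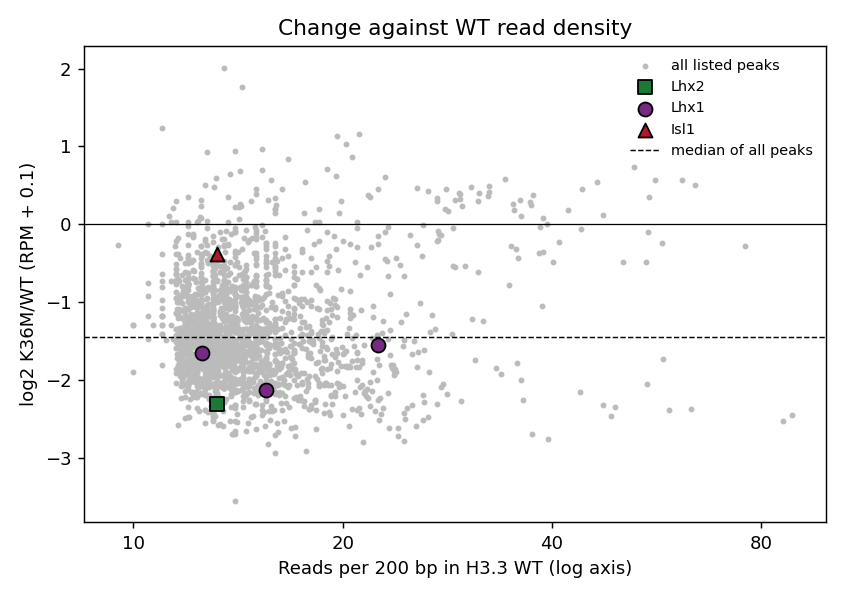
log2 ratio of K36M to WT (RPM plus 0.1, y axis) against reads per 200 bp in WT (x axis, log scale) for all 2217 listed peaks (grey), with Lhx2 (square), Lhx1 (circles) and Isl1 (triangle); the solid line marks equal RPM and the dashed line the median of all peaks, -1.45. Lhx2 (-2.31) and Isl1 (-0.38, above 0 once the libraries are scaled to the same median or sum) lie on opposite sides of the median. Both have 13.2 reads per 200 bp in WT, where no listed peak has less than 9.5.

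The peaks nearest to Isl1 and Lhx2 differed from them in their change, while at Lhx1 no difference was resolved. Next to Isl1, a 1400 bp peak 112.0 kb below the window (116936600 to 116937999) held 3.79 RPM in WT and 0.966 RPM in K36M, which is a ratio of 0.255 (0.169 to 0.375). Another peak beside it, of 1000 bp, had a ratio of 0.210 (0.120 to 0.352). The ratio at Isl1 was 3.003 times that of the first of these (1.87 to 4.87), so the higher value at Isl1 was not shared by its nearest listed neighbour. Near Lhx2 the reverse was seen, at a greater distance: the nearest peaks lay 899.2 kb and 945.2 kb above the window and had ratios of 0.649 (0.436 to 0.961) and 0.602 (0.495 to 0.730). The ratio at Lhx2 was 0.305 times that of the nearer one (0.197 to 0.475). Near Lhx1 the closest peak, 732.4 kb below, had a ratio of 0.435 (0.210 to 0.864), and the next, 900.8 kb above, 0.783 (0.466 to 1.31). The ratio at Lhx1 was 0.718 times that of the closest peak, with an interval from 0.351 to 1.53 that included 1. Scaled to the same median or sum, the point values of the neighbours of Isl1 stayed below 1, and those of both neighbours of Lhx2 and of Lhx1 rose above it. The nearest peak to Isl1 became 0.736 and 0.617, and the closest to Lhx1, with 14 K36M reads, 1.26 and 1.05. Scaled intervals of the neighbours are not given, so these directions were not assessed against counting error.

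**Figure D5:**
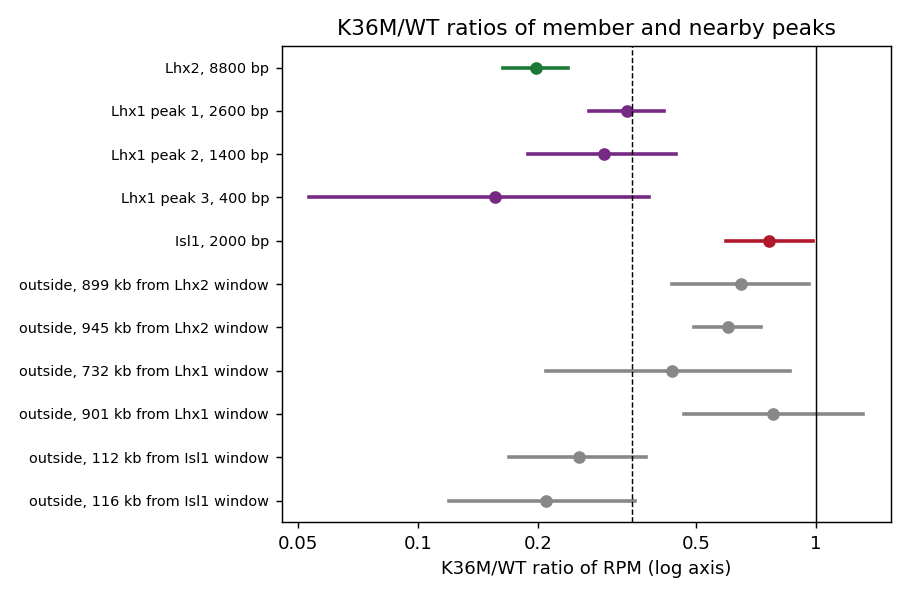
Ratio of K36M to WT RPM (x axis, log scale) with 95% exact intervals for the 5 member peaks (coloured) and for the 2 listed peaks nearest to each window (grey), named by their distance from it; the solid line marks equal RPM and the dashed line equality after scaling to the same median. Isl1 (0.765) lies to the right of its neighbours (0.255 and 0.210) and, after that scaling, above equality, while Lhx2 (0.198) lies to the left of its own.

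In the paralogue pairs, the listed peaks fell at 1 gene or at neither. Of Lhx2 and Lhx9, the mouse relatives of fly apterous, Lhx2 had a peak; the window of Lhx9, a gene needed for gonad formation, had none within 378.8 kb. Of the Islet genes, Isl1 had a peak, whereas the window of Isl2, which marks motor neurons and a subset of retinal ganglion cells, had none within 185.6 kb. Neither Lmx1 gene had one: the nearest listed peaks were 1328.6 kb from the window of Lmx1b, which sets dorsal identity in the limb, and 1617.0 kb from that of Lmx1a, which acts in the roof plate and in midbrain dopamine neurons. Around Lhx8, a gene of basal forebrain cholinergic neurons, teeth and oocytes, the table was emptiest. Its window starts at 153.94 Mb on chromosome 3, and the last listed peak on that chromosome, at 145312999, was 8627 kb before it. The least dense peak of the table had 9.5 reads per 200 bp in WT. A window without a peak is therefore one with no region listed, and lower Cbx2 signal there, or signal in K36M alone, could not be assessed.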

How the data were processed

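The submitters' processing notes name Bowtie 1.0.0 and mm9. The sources used here do not state the peak caller, the libraries it was run on, or how duplicates and input were treated. The labels name different suppliers for the Cbx2 antibody in the protocol and in the sample descriptions. The deposited columns are headed RPKM but hold RPM: irrespective of peak length, 100% of their values are whole multiples of 1 step (tolerance 1e-06 of a read). That step was taken as 1 read, and the library sizes and read counts given here follow from it. The WT column was taken as the Cbx2 library because the table is named for Cbx2.

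Members and lists were chosen with earlier results of these data known; every peak at the 8 loci was named. Log2 ratios used RPM plus a pseudocount of 0.1, which understates changes of weak peaks; other ratios used none. The 95% exact intervals (Poisson for levels, Clopper-Pearson for ratios, conditional for ratios of ratios) treat each read as independent. They cover counting error only and leave out variation between cultures and immunoprecipitations. Where reads are PCR copies of a molecule, the intervals are too narrow even for counting error. The calculations were tested on simulated reads (Python 3.11.15, scipy 1.17.1). Alternatives were pseudocounts of 0.01 and 1, a filter at the median mean RPM, other scalings, windows widened by 20 kb or holding peaks wholly, and limits of 1.5-fold and 3-fold. Chosen after seeing the data were 1 summed value per locus and subtraction of the mean density outside peaks. Other LIM-homeobox and LIM-only genes and cofactors were not placed, as no mm9 annotation was used here.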

Additional observations from a re-analysis of the deposited data

How the results depend on the processing

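No paired analysis was possible because WT and K36M have a single ChIP library apiece, and none could be left out. Of 43 alternative values, 27 stayed within set limits. The limits were the counting interval of the middle peak (1400 bp, Lhx1) for the median log2 ratio, and the counting interval of the locus for a locus ratio. For counts the limit was 1.5 times the reported value. Widening the windows by 20 kb, or asking for peaks wholly inside, left the same 5 peaks, so the values under these settings were unchanged and are among the 27. The median log2 ratio of the 5 peaks, -1.66, became -1.09 with a pseudocount of 1, -0.23 with the same median and -0.47 with the same sum. The count of 4 peaks at least 2-fold lower became 2 with the filter at the median mean RPM, 1 with the same median, 2 with the same sum and 2 of 3 with 1 summed value per locus, where fewer values were counted; the count of 0 at least 2-fold higher became 1 with the same median. The locus ratios became 0.571 and 0.479 at Lhx2, 0.903 and 0.756 at Lhx1, and 2.21 and 1.85 at Isl1 with the same median and the same sum, which turned the direction at Isl1; the scaling factors of 2.89 and 2.42 alone make these changes. Subtracting the mean density outside peaks gave 0.031 at Lhx2, 0.217 at Lhx1 and 0.715 at Isl1, and assumes an even background. Depth limits the 400 bp Lhx1 peak most, with 31 and 6 reads.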
